A study of Homo sapiens with 34 samples.

Results

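The sites bound by the YAP-TFE3 fusion protein were compared with the sites bound by YAP5SA, an active form of YAP, in a human liposarcoma cell line, SW872. The members were the peaks of both deposited lists on chromosomes 1 to 22 and X, 3336 for YAP-TFE3 and 3754 for YAP5SA, together 7090. The 7 lists of the series held 10414 peaks over all sequences, unplaced scaffolds included. Each list was split into peaks that shared at least 1 bp with a peak of the other list and peaks that did not. In both groups the cells carried a doubly Flag-tagged protein on a retroviral vector (pBabeNeo) and were selected with G418, and the labels give no deletion of the cells' own YAP or TFE3 gene. The labels give 90% confluence at 48 hours before collection for both. Each group had 3 Flag immunoprecipitations and 2 inputs. The triplicates came from separate transductions, each kept as a pool of selected cells. The authors pooled the replicates before calling peaks, so each group is a single list, and no value below has an error between replicates or a test. All intervals are 95% intervals for counting error and treat neighbouring peaks as independent.

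YAP is a transcriptional co-activator without a DNA-binding domain of its own, and it reaches chromatin mainly through TEAD transcription factors, which its amino terminus binds. LATS kinases of the Hippo pathway phosphorylate YAP and keep it out of the nucleus, and in YAP5SA the serines they act on are alanines. YAP-TFE3 is a fusion protein of epithelioid hemangioendothelioma, a vascular sarcoma, and joins the TEAD-binding amino terminus of YAP to the carboxy terminus of TFE3, a transcription factor of the MiTF family with its own basic helix-loop-helix DNA-binding domain and leucine zipper. The 2 proteins thus share the means to bind TEAD, and the fusion alone carries a DNA-binding domain. The comparison addressed how far the fusion occupied the sites of active YAP, and where it did not.

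The 2 lists were made at nearly the same depth. The number of fragments at each summit, which is the highest point of a peak, was recovered from the fold enrichment and p-value that the caller gives, with a single solution for 3333 YAP-TFE3 and 3747 YAP5SA peaks. The pooled YAP-TFE3 immunoprecipitation covered the genome at a mean of 10.5 fragments per base and that of YAP5SA at 10.7. Summits held a median of 59 fragments in the YAP-TFE3 list and 68 in the YAP5SA list. Median peak width was 342 and 326 bp, and the narrowest peak was 196 bp in both.

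YAP-TFE3 peaks were called at a minority of the YAP5SA sites, and most YAP-TFE3 sites were not called in YAP5SA. Of the YAP-TFE3 peaks, 1376 overlapped a YAP5SA peak, which is 41.2% (Wilson interval 39.6% to 42.9%), and 1960 or 58.8% did not. Of the YAP5SA peaks, 1369 overlapped a YAP-TFE3 peak, which is 36.5% (34.9% to 38.02%), and 2385 or 63.5% did not. The overlaps formed 1364 shared sites. At 1347 of them a single peak met a single peak, at 12 a YAP5SA peak met 2 YAP-TFE3 peaks, and at 5 the reverse held. In length, the shared bases were 490.3 kb, or 35.9% of the 1366 kb covered by YAP-TFE3 peaks and 32.7% of the 1499 kb covered by YAP5SA peaks.

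Few peaks lay near the limit that decided between shared and not shared. The median overlap was 294 bp, and 10 of 1381 overlapping peak pairs shared 50 bp or less, the smallest being 1 bp. On the other side, 8 YAP-TFE3 and 7 YAP5SA peaks outside the other list came within 50 bp of a peak in it. Most peaks outside the other list were more than 10 kb from it. The nearest YAP5SA peak was a median of 102 kb (92.7 to 114 kb) from an unshared YAP-TFE3 peak, and the nearest YAP-TFE3 peak was 101 kb (91.3 to 112 kb) from an unshared YAP5SA peak. Within 1 kb lay 87 unshared YAP-TFE3 peaks (4.44%) and 78 unshared YAP5SA peaks (3.27%), and within 10 kb 294 (15.0%) and 387 (16.2%). How far apart randomly placed peaks would lie was not computed.

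At shared sites both proteins peaked at nearly the same position. Each site was reduced to the pair of peaks with the closest summits, giving 1364 pairs. The median distance between paired summits was 33 bp (interval 30 to 36 bp), and the middle 50% of distances ran from 13 to 87.3 bp. Summits were within 50 bp at 62.1% of pairs, within 100 bp at 77.1% and within 200 bp at 88.6%. At 19 pairs the summits fell on the same base. The distance was shorter where both peaks were strong. It had a median of 24 bp (21 to 26 bp) at the 615 pairs above the median rank in both lists and 77 bp (65 to 90 bp) at the 246 pairs below it in both. A summit lay more than 500 bp from its partner at 22 sites, where the median width was 928 bp in YAP-TFE3 and 885 bp in YAP5SA, and the greatest distance was 1516 bp.

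**Figure D1:**
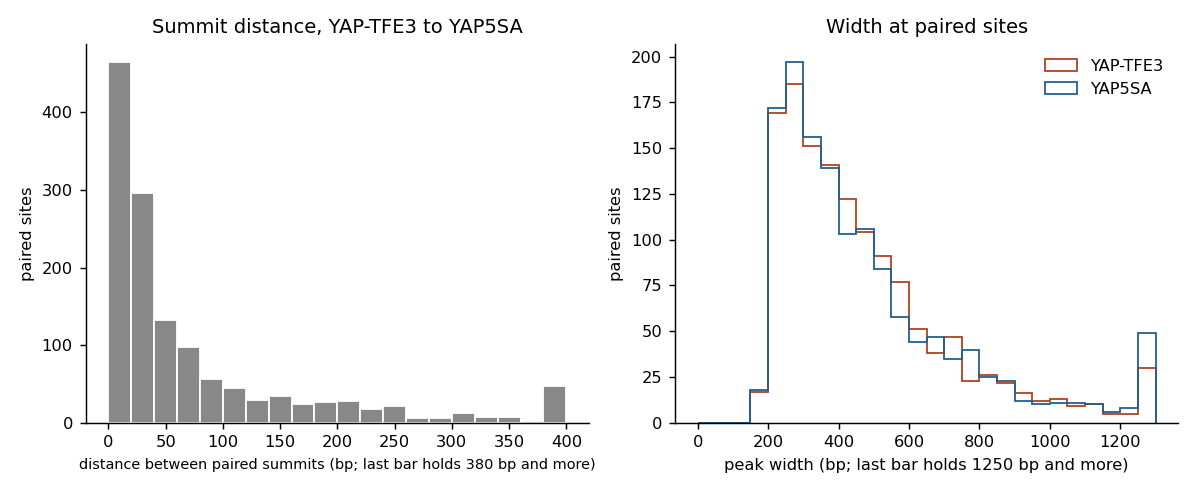
Left, number of paired sites by the distance in bp between the YAP-TFE3 and YAP5SA summits, in bars of 20 bp. Right, number of paired sites by peak width in bp for YAP-TFE3 (red line) and YAP5SA (blue line). Distances crowd toward 0, with a median of 33 bp, and the outlines of both widths lie close together.

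Widths at shared sites showed no lean to either protein beyond counting error. Median width was 406 bp for YAP-TFE3 and 400 bp for YAP5SA, and the median log2 ratio of the widths was −0.02 (−0.05 to 0.03; SD over sites 0.77). The YAP-TFE3 peak was the wider at 48.8% of pairs, and the widths were within 2-fold at 81.1%. Peaks wider than 1 kb, which have more bases with which to meet another peak, were mostly shared. This held for 72 of 90 such YAP-TFE3 peaks (80.0%, interval 70.6% to 87.0%) and for 96 of 110 such YAP5SA peaks (87.3%, 79.8% to 92.3%). Chromosome 5 carried 26 and 42 of them.

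Fold enrichment, the fragment pileup at a summit relative to the local background, agreed loosely. At paired sites its median was 4.93 for YAP-TFE3 and 5.46 for YAP5SA, and the median log2 ratio of YAP-TFE3 over YAP5SA was −0.11 (−0.15 to −0.08; SD over sites 0.60). Single sites spread widely about this, from −2.84 to 1.98, with the middle 50% between −0.48 and 0.25. YAP-TFE3 was the higher at 556 pairs, or 40.8%. Fold enrichment was at least 2-fold higher in YAP-TFE3 at 68 pairs (4.99%) and at least 2-fold higher in YAP5SA at 75 pairs (5.5%), leaving 89.5% within 2-fold. Fragments per mean coverage gave a median log2 ratio of −0.14 at the 1358 pairs resolved to fragments. The exact binomial interval of that ratio lay above 1 at 206 pairs (15.2%), below 1 at 358 (26.4%) and spanned 1 at 794 (58.5%). Such an interval covers the counting of fragments in these pooled libraries and not the spread between cultures.

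Among sites called in both lists, strength in one list was a weak guide to strength in the other. Sites called in a single list are left out of this comparison, and no correlation between replicates was available to judge it by. Across the 1364 pairs, which share a genome position, a cell line and a similar depth, Spearman's rho was 0.32 for fold enrichment (Pearson's r of log2 values 0.35), 0.30 for the rank by −log10 q and 0.35 for width. The order of sites differed down to the top of the lists. Of the 100 strongest YAP-TFE3 peaks 86 were in the YAP5SA list, and of the 100 strongest YAP5SA peaks 72 were in the YAP-TFE3 list, but 15 pairs were among the strongest 100 of both. For the strongest 500 the numbers were 333, 327 and 128. When each list was cut by rank into 4 equal parts, the partners of the strongest YAP-TFE3 part fell into the strongest YAP5SA part in 51.1% of 505 cases and into the weakest in 8.51%. The partners of the weakest YAP-TFE3 part were spread more evenly, with 23.3% of 202 in the strongest YAP5SA part and 31.7% in the weakest.

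**Figure D2:**
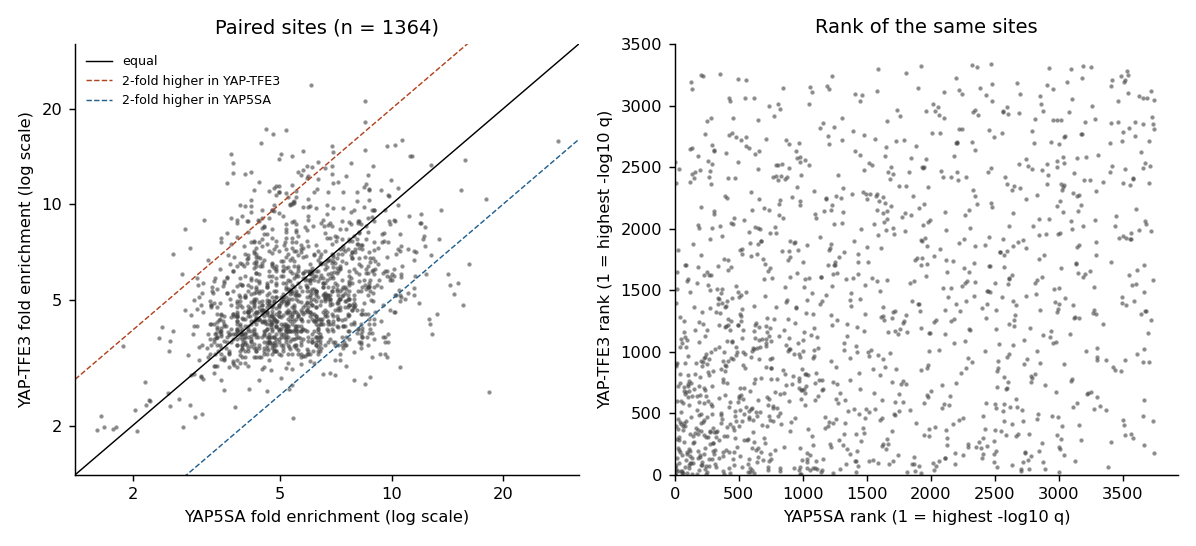
Left, fold enrichment of YAP-TFE3 against YAP5SA at the 1364 paired sites, both on log scales, with lines for equal values and for 2-fold differences. Right, rank of the same sites in each list by −log10 q, where 1 is the strongest. Points scatter broadly about the line of equal values, with 68 sites at or above the upper line and 75 at or below the lower one, and the ranks are densest near the corner where both are strong.

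The peak that ranked 1 in the YAP5SA list showed how far the proteins could part at a shared site. It ran on chromosome 5 from 165783138 to 165786052, with 630 fragments at its summit and a fold enrichment of 18.3. The YAP-TFE3 peak beneath it, from 165785159 to 165785385, ranked 2545 with 98 fragments and a fold enrichment of 2.56. Its log2 ratio of −2.84 was the lowest of all pairs, although the summits were 16 bp apart. The local background, in scaled fragments, was above the genome level in both lists, at 13.0 for YAP-TFE3 and 9.60 for YAP5SA against genome levels of 3.73 and 3.28. This pair was singled out after its values were seen.

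Sharing rose with strength in both lists. The strongest part of the YAP5SA list overlapped YAP-TFE3 in 57.2% of peaks (54.1% to 60.4%), and the next parts in 34.2%, 29.4% and 25.03%. For YAP-TFE3 the shares were 60.8%, 44.6%, 34.7% and 24.9%. The parts of the YAP5SA list are larger (938 or 939 peaks against 834), so the shares are not compared between lists. Shared peaks were also wider and taller than the others of their own list. Median fold enrichment was 4.90 against 4.12 in YAP-TFE3 and 5.46 against 4.68 in YAP5SA, for peaks inside and outside the other list. A −log10 q above 10 was reached by 34.7% of shared and 14.7% of unshared YAP-TFE3 peaks, and by 40.8% and 17.7% of YAP5SA peaks.

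**Figure D3:**
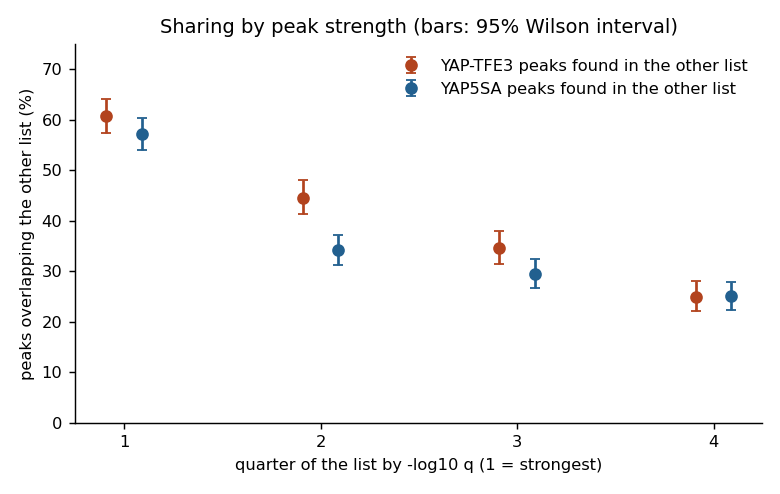
Percent of peaks that overlap the other list, in 4 equal parts of each list ranked by −log10 q, with 1 the strongest. Points are shares and bars are Wilson intervals, red for YAP-TFE3 and blue for YAP5SA. Both fall from left to right, from 60.8% and 57.2% to 24.9% and 25.03%.

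A peak missing from the other list can have been bound there below the caller's limit. At the genome background the fewest fragments with which a peak entered the YAP5SA list were 40, and 37 for YAP-TFE3. The background of an uncalled site is unknown, so it was assumed to be the same multiple of the genome level in both lists. Under that assumption and relative to mean coverage, 236 of 1959 unshared YAP-TFE3 peaks (12.05%) had at least 2-fold more fragments than an uncalled YAP5SA site could hold. For unshared YAP5SA peaks the number was 548 of 2383 (23.0%). The remaining unshared peaks, 88.0% and 77.0%, could not be shown to differ by 2-fold at this depth. The assumption failed at some called sites. Of 1022 pairs at genome background in YAP-TFE3, 130 (12.7%) had a raised YAP5SA background, up to 2.13 times the genome level. The reverse held at 165 of 1057 (15.6%), up to 3.48 times. The numbers are therefore estimates and not strict limits, and they do not cover the caller's minimum length or the removal of regions. With the median fragments of the narrowest peaks as the limit, 60 for YAP5SA and 46 for YAP-TFE3, the numbers fell to 31 and 209.

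The 10 strongest peaks found with YAP-TFE3 and outside YAP5SA lay on 8 chromosomes. The first, on chromosome 2 from 33091798 to 33092088, ranked 6 in the YAP-TFE3 list with 258 fragments (Poisson interval 227 to 291) and a fold enrichment of 19.6. With the same relative background, an uncalled YAP5SA site there would have held at least 6.58-fold fewer relative to mean coverage, but with a raised YAP5SA background it could have held more. The nearest YAP5SA peak was 1467 kb away, and a TFE3 peak overlapped it. The next was on chromosome 20 from 49056698 to 49057458, with 217 fragments (189 to 248), and no other list had it. The one after, on chromosome 13 from 21635345 to 21636003, held 194 fragments (168 to 223) and was overlapped by TAZ4SA and TAZ-CAMTA1 peaks, TAZ4SA being an active form of the YAP paralogue TAZ and TAZ-CAMTA1 the other fusion protein of this tumour. The remaining 7 held 144 to 169 fragments. Among them, a site on chromosome 17 from 48450103 to 48450615, with 147 fragments, and a site on chromosome 20 from 23342158 to 23342769, with 144 fragments, were also TFE3 sites. Of the 10, 3 were in the TFE3 list and 2 in the TAZ4SA list, against 7.07% and 15.6% of all YAP-TFE3 peaks. Over all 10, under the same assumption, the smallest difference was 3.67-fold to 6.58-fold, and 2.44-fold to 4.39-fold with the stricter limit.

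The 10 strongest peaks found with YAP5SA and outside YAP-TFE3 ranked from 19 to 48 in the YAP5SA list. The first was on chromosome 11 from 130253349 to 130253881, ranked 19 in the YAP5SA list, held 182 fragments (157 to 210), was enriched 13.3-fold and met a TAZ-CAMTA1 peak. A second site on the same chromosome, from 130547373 to 130547872, held 165 fragments (141 to 192) and was overlapped by both TAZ4SA and TAZ-CAMTA1. The peak on chromosome 9 from 114792319 to 114792610 had 176 fragments (151 to 204), and the nearest YAP-TFE3 peak was 11.2 kb away. A pair of further sites had a YAP-TFE3 peak within 10 kb, on chromosome 20 from 30307662 to 30308626 at 6.31 kb and from 52757051 to 52758060 at 7.10 kb. Of the 10, 8 were in the TAZ4SA list and 0 in the TFE3 list, against 21.9% and 2.56% of all YAP5SA peaks. Of the 25 strongest unshared YAP5SA peaks, 11 were in the TAZ4SA list. With so low a TFE3 share over the whole list, 0 of 10 says little. Under the assumption of equal relative background, the smallest difference ran from 3.88-fold to 4.82-fold, and from 2.97-fold to 3.88-fold with the stricter limit.

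**Figure D4:**
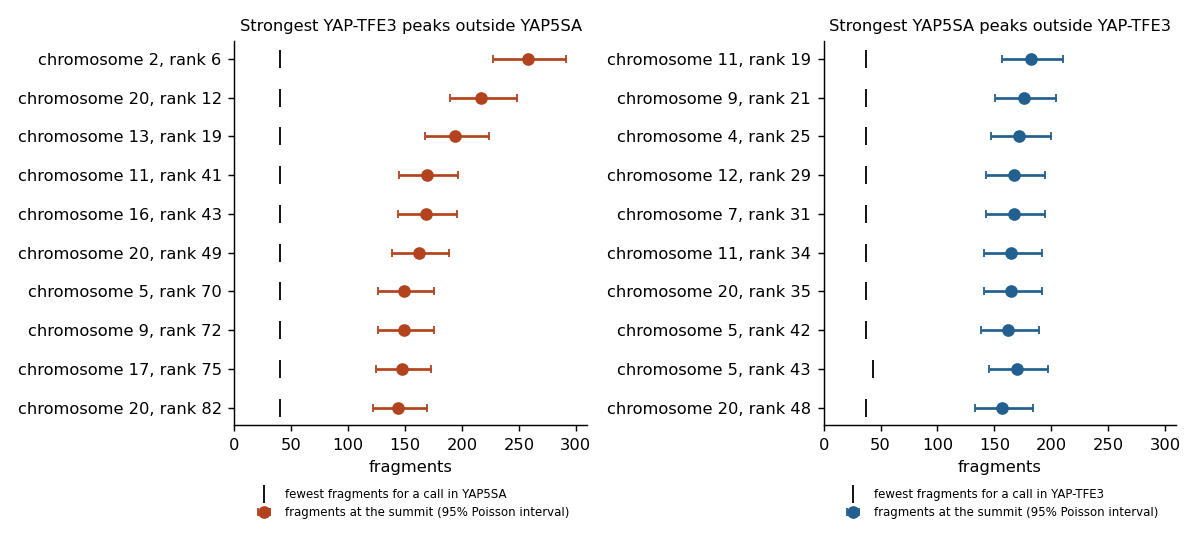
Fragments at the summit of the 10 strongest YAP-TFE3 peaks outside YAP5SA (left) and the 10 strongest YAP5SA peaks outside YAP-TFE3 (right), labelled by chromosome and by rank in their own list. Points are fragments with Poisson intervals, and vertical ticks are the fewest fragments with which a peak would have been called in the other list at the same relative background. All points lie right of the ticks, at 144 to 258 fragments on the left and 157 to 182 on the right.

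The other lists of the series played no part in the split. Of these lists, TFE3 and TAZ4SA met the unshared peaks of the 2 proteins at different shares, and TAZ-CAMTA1 at similar ones. Full-length TFE3 peaks were overlapped by 7.07% of all YAP-TFE3 peaks and 2.56% of all YAP5SA peaks. Among YAP-TFE3 peaks the share was 7.40% (6.32% to 8.64%) outside YAP5SA and 6.61% (5.42% to 8.05%) inside it. With peaks on unplaced scaffolds included, the order turned, at 7.81% (6.72% to 9.07%) outside and 12.02% (10.5% to 13.8%) inside. Among YAP5SA peaks it was 6.65% (5.45% to 8.09%) inside YAP-TFE3 but 0.210% (0.0896% to 0.490%) outside, which is 5 of 2385. Since unshared peaks were weaker, the strongest part of each list was also looked at alone. There 77 of 327 unshared YAP-TFE3 peaks were TFE3 sites, or 23.5% (19.3% to 28.4%), against 79 of 507 shared peaks, or 15.6% (12.7% to 19.0%). For YAP5SA it was 0 of 401 unshared peaks, which allows a share of up to 0.748%, against 27 of 537 shared peaks, or 5.03%. The TFE3 list had 299 peaks and a mean coverage of 8.61 fragments per base.

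TAZ4SA divided the peaks the other way. It overlapped 15.6% of all YAP-TFE3 peaks and 21.9% of all YAP5SA peaks. Shared peaks were TAZ4SA sites in 33.9% of cases counted from YAP-TFE3 and 34.0% counted from YAP5SA. Outside the shared sites, 15.0% (13.6% to 16.5%) of YAP5SA peaks were TAZ4SA sites, against 2.76% (2.12% to 3.58%) of YAP-TFE3 peaks. In the strongest parts of the lists these were 128 of 401 peaks, or 31.9%, and 13 of 327, or 3.98%. TAZ-CAMTA1 overlapped 18.2% of all YAP-TFE3 and 17.6% of all YAP5SA peaks, with 34.3% and 34.7% inside the shared sites. Outside them the shares were 6.94% (5.90% to 8.15%) for YAP-TFE3 and 7.80% (6.79% to 8.94%) for YAP5SA, with overlapping intervals. The TAZ4SA and TAZ-CAMTA1 lists were made at a mean coverage of 2.33 and 2.52 fragments per base. The fewest fragments at a summit were 11 in each of them and 38 in the TFE3 list. A site missing from any of these lists can have been bound there below the caller's limit. The CAMTA1 list overlapped 0.33% of YAP-TFE3 and 0.186% of YAP5SA peaks. No peak of either protein met an IgG peak from empty vector cells. That list had 4 peaks on these chromosomes and could meet very few peaks, so this absence says little about nonspecific peaks.

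**Figure D5:**
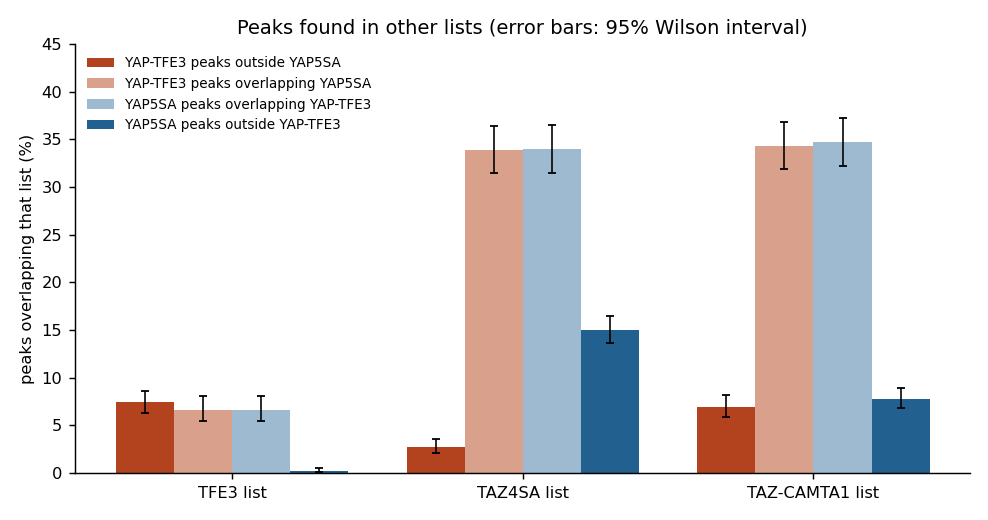
Percent of peaks that overlap the TFE3, TAZ4SA and TAZ-CAMTA1 lists, for YAP-TFE3 peaks outside and inside the YAP5SA list (dark and light red) and YAP5SA peaks inside and outside the YAP-TFE3 list (light and dark blue), with Wilson intervals. The bar for TFE3 sites among unshared YAP5SA peaks is at 0.210%, and the bar for TAZ4SA sites among unshared YAP-TFE3 peaks is at 2.76%.

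Peaks in none of the 5 other lists made up 84.3% of unshared YAP-TFE3 peaks and 79.5% of unshared YAP5SA peaks, against 45.7% and 45.4% of shared peaks. Among the 100 strongest unshared YAP-TFE3 peaks, 32 were TFE3 sites, 5 were TAZ4SA sites, 16 were TAZ-CAMTA1 sites and 52 were in no other list. Among the 100 strongest unshared YAP5SA peaks the numbers were 0, 44, 21 and 44.

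The same division ran through the shared sites. At the 91 paired sites that TFE3 also occupied, the median log2 ratio of fold enrichment was 0.72 (0.48 to 0.88), with YAP-TFE3 the higher at 82 of them. At the other 1273 pairs the median was −0.16 (−0.19 to −0.12). A difference of at least 2-fold toward YAP-TFE3 was seen at 30 of the 91 TFE3 sites and toward YAP5SA at 1, while over all pairs these were 4.99% and 5.5%. Many TFE3 sites lay in regions of raised local background, and at the 37 with genome background in both lists the median was 0.86 (0.60 to 1.10), with YAP-TFE3 the higher at 36. Fragments per mean coverage gave medians of 0.79 at TFE3 sites and −0.19 elsewhere. At the 465 pairs in the TAZ4SA list the median log2 ratio of fold enrichment was −0.31 (−0.37 to −0.23), and at the 899 pairs outside it −0.04 (−0.08 to −0.01). For TAZ-CAMTA1 the medians were −0.21 (−0.28 to −0.15) at 475 pairs and −0.08 (−0.11 to −0.04) at 889.

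Single sites were named from the pairs above the median rank in both lists, and some pairs outside this limit had larger differences. Within it, the highest ratio toward YAP-TFE3 was on chromosome 17 at 7137455 to 7138210, a TFE3 site with a fold enrichment of 23.8 in YAP-TFE3 and 6.06 in YAP5SA. It held 314 and 135 fragments, a ratio per mean coverage of 2.37 (1.93 to 2.92), and its YAP5SA background was 6 against a genome level of 3.28. The next was on chromosome 11 at 67158895 to 67159779, with 17.3 and 4.57, and a fragment ratio of 2.00 (1.59 to 2.52). The one after was on chromosome 5 at 65440052 to 65440784, with 15.6 and 4.44, and a fragment ratio of 2.13 (1.67 to 2.74). TFE3 occupied both, and their YAP5SA backgrounds were also raised, at 7 and 6. The site on chromosome 19 from 50639909 to 50640702 had fold enrichments of 17.1 and 5.20 and was in no other list. It held 346 and 104 fragments, a ratio of 3.39 (2.72 to 4.27). The fifth, on chromosome 3 from 134082587 to 134083272, had 14.4 and 5.03 and was a TAZ4SA and TAZ-CAMTA1 site.

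Toward YAP5SA, the highest ratio among pairs above the median rank in both lists was on chromosome 9, where the YAP5SA peak, enriched 15.6-fold, ran from 100985234 to 100985943 and the YAP-TFE3 peak, enriched 4.80-fold, from 100985616 to 100985844. The fragments were 214 and 61, a ratio of YAP-TFE3 over YAP5SA of 0.291 (0.215 to 0.388) per mean coverage. The next was on chromosome 5, where the YAP5SA peak from 53996931 to 53997666 had 12.7 and YAP-TFE3 had 4.18. On chromosome 20 a YAP5SA peak from 59761007 to 59761821 had 13.3 and its partner 4.50. The last of the 5 named sites, also on chromosome 5, joined a YAP5SA peak of 2150 bp to a YAP-TFE3 peak of 733 bp whose summit lay 1495 bp away, so its values compare different points of the locus. All 5 were TAZ4SA sites and none was a TFE3 site, while of all 1364 pairs 465 were in the TAZ4SA list and 91 in the TFE3 list.

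The sites ranked highest in both lists together differed in fold enrichment and in the other lists that met them. At 6 of the 10, TAZ4SA and TAZ-CAMTA1 peaks were present as well. The strongest of these was on chromosome 5, where YAP-TFE3 covered 1327388 to 1328757 at 15.8-fold enrichment and YAP5SA covered 1326298 to 1328941 at 28.1-fold, the highest in its list. The site on chromosome 9 from 114803788 to 114804954 had 13.8 and 15.8, and the site on chromosome 16 from 68271299 to 68271944 had 13.3 and 12.8. Fragments at the last were 174 and 175, a ratio of 1.01 (0.818 to 1.26). The other 4 had fold enrichments of 1.77 to 6.65, and TFE3 peaks were present at all 4. The local background was resolved at 3 of these 4 and was raised at each. On chromosome 5 from 10066 to 11735 it was 49.8 in YAP-TFE3 and 59.0 in YAP5SA. Fragments there numbered 946 and 885, and a TAZ4SA peak was also present. On chromosome 9 from 141121872 to 141123691 the background was 61 and 46, and a TAZ-CAMTA1 peak was also present. On chromosome X from 155260120 to 155260376 it was 164 and 128. Over all pairs, 31 of 1364 (2.27%) had a background above 2 times the genome level in both lists and 9 above 10 times. The part of such background in the sharing of these sites was not tested.

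Sharing differed from chromosome to chromosome within wide intervals. For YAP-TFE3 it ran from 21.9% of 32 peaks on chromosome 10 (11.02% to 38.8%) to 48.9% of 323 peaks on chromosome 7 (43.5% to 54.3%). For YAP5SA it ran from 20.2% of 119 peaks on chromosome 6 (13.9% to 28.3%) to 54.4% of 79 peaks on chromosome 19 (43.5% to 65.0%). Peak numbers leaned toward YAP-TFE3 on chromosome 19, with 121 peaks against 79, and on chromosome 17, with 126 against 99. They leaned toward YAP5SA on chromosome 5, with 534 against 689, and on chromosome 2, with 176 against 248. On the 18 chromosomes with at least 20 pairs, the median log2 ratio of fold enrichment lay between −0.24 on chromosome 14 and 0.13 on chromosome 3. Copy number of these chromosomes was not analysed here.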

How the data were processed

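Chromatin bound by Flag-tagged YAP-TFE3 or YAP5SA in SW872 cells was immunoprecipitated and sequenced. The authors combined the replicate reads, trimmed them with Atropos, aligned them to GRCh37 with BWA-MEM, removed reads with several placements and greylisted regions, and called peaks on whole fragments with macs2. Fold enrichment, a ratio of summit pileup to local background with a pseudocount of 1, is as deposited by the authors. The −log10 p and −log10 q of each peak were also deposited. The display score that the authors deposited was not used. Which control libraries set the background of each list is not given in the sources used here.

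Peaks overlapped where they shared at least 1 bp, and pairs were mutual nearest summits. Fragments, scaling and local background were solved from fold enrichment and p, taking fragments as whole. Mean coverage is genome background over scaling (0.356 and 0.307). Shares have Wilson intervals, medians order-statistic intervals, fragments Poisson intervals and ratios exact binomial intervals, at 95% and for counting error only. A share of 0 allows 3 counts. Named sites were the 10 with the highest −log10 q among unshared peaks of each list, the 10 pairs with the lowest rank sum, and the 5 highest and 5 lowest fold enrichment ratios among pairs above the median rank in both lists. The members and lists were chosen with earlier results of these data known. The scripts were tested on simulated data.

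The supplied genome was GRCh38. On it 28 of the 7090 peaks ended past their chromosome and 27 covered unknown bases, so no sequence, gene or motif was read, and gene positions were not used here. Peaks on unplaced scaffolds were left out, and used in an alternative. Computations used Python 3.11.15 with scipy 1.17.1, pandas 2.3.3, matplotlib 3.10.9 and numpy 2.4.6.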

Additional observations from a re-analysis of the deposited data

How the results depend on the processing

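Of 73 alternatives over 15 results, 54 stayed within the interval, the SD over sites or 1.5 times the number, 19 moved and 0 reversed. The numbers of unshared peaks restate the shares of shared peaks at a wider tolerance, so they stayed even where those shares moved. With 50% reciprocal overlap they went from 1960 to 2333 for YAP-TFE3 and from 2385 to 2751 for YAP5SA. Requiring 50% reciprocal overlap lowered the shared peaks to 30.1% of YAP-TFE3 and 26.7% of YAP5SA and the median summit distance to 29 bp, and raised Spearman's rho to 0.42 for fold enrichment and 0.40 for rank. It lowered TFE3 sites to 6.13% of unshared and 4.89% of shared YAP-TFE3 peaks, and TAZ4SA sites to 12.5% of unshared and 29.3% of shared YAP5SA peaks. The same rule was applied to the overlaps with TFE3 and TAZ4SA. The lower shares of shared peaks follow from the stricter rule, and the cause of the other changes was not tested. With summits no more than 200 bp apart the shares were 36.2% and 32.2%, and with lists of equal length 38.5% and 38.2%. With unplaced scaffolds included, rho was 0.44 for fold enrichment and 0.38 for rank, and 12.02% of shared against 7.81% of unshared YAP-TFE3 peaks were TFE3 sites, which turns the order of these shares. The alternative differs by the added scaffold peaks alone. The following were chosen after seeing the data. Without chromosomes 5 and 20, TAZ4SA sites made up 17.4% of unshared YAP5SA peaks, and the cause was not tested. With the narrowest peaks as the limit for a call, 31 and 209 unshared peaks of YAP-TFE3 and YAP5SA had at least 2-fold more fragments. No paired analysis was possible because replicates had been combined into 1 list before peaks were called, and no replicate could be left out. Depth limits what a missing peak shows, since a site with under 40 fragments in YAP5SA or 37 in YAP-TFE3 at genome background was not called.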
